A study of Mus musculus with 6 samples.

Results

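Smooth muscle contractile genes encode the filaments, the motor, the activating kinase and the regulators that let smooth muscle cells shorten. In the deposited counts 10 named genes were followed by symbol, namely Acta2, Myh11, Tagln, Cnn1, Des, Lmod1, Mylk, Smtn, Actg2 and Myocd, so that the list held 10 of the 47069 genes in the table. Among other questions, the study asked what a deletion in the 5′ region of Zpbp2 does to the lung transcriptome. Lungs taken at ZT10, that is 10 h after lights on, are followed here, and the study's other time point is not. RNA was sequenced from whole lungs of 3 wild type C57BL/6J mice (WT4, WT5 and WT6) and of 3 Zpbp2 KO mice (KO4, KO5 and KO6), with 1 library per mouse. The KO mice carry a constitutive deletion of exons 1 to 3 of Zpbp2, in the strain B6.129S7-Zpbp2tmZuk/Mmjax, on a C57BL/6J background. All mice were adults, WT mice came from the same colony, and the labels name no other agent or allele for either group. The age in weeks and the sex of each animal are not in the labels used here.

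Smooth muscle in the lung wraps the bronchi and bronchioles and the walls of pulmonary arteries and veins. In these cells calcium and calmodulin activate myosin light chain kinase, the phosphorylated myosin pulls on actin filaments, and myosin phosphatase reverses the step. The genes of this machinery are typically switched on together by serum response factor (SRF) with its coactivator myocardin, which acts at CArG boxes in promoters and introns.

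Total counts per library lay between 19981428 and 46796908, with KO5 the deepest, and counts are given as CPM, the usual count unit corrected for depth, after TMM scaling in edgeR. Each member had at least 21 counts in each library, well above the floor of 3 counts, and all 10 passed the filter on low counts among 17037 genes tested. Zpbp2 had 1 or 2 counts in each WT library and 0 in each KO library, at or under that floor. Its loss could therefore not be measured in these sequencing counts. KO5 stood apart by skeletal muscle transcripts. Acta1, the skeletal muscle actin, measured 29.2 CPM in KO5 and between 0.0978 and 1.29 CPM elsewhere. WT5 and KO6 held the most cardiac muscle RNA. Myh6, a cardiac myosin heavy chain, measured 550.3 and 605.7 CPM in them against 64.5 to 332 CPM in the other 4 libraries. Cardiac cells sheathe the pulmonary veins of mice.

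SRF sites are shown because the contractile genes share this control as textbook knowledge. RefSeq promoters (GRCm38.p6) were at hand for 6 of the 10 members, and the 250 bases before each transcription start were searched for the CArG box, which reads the same on both strands, with at most 1 mismatch. Among the member promoters, 2 held matches, at 2 places each, and none held a match without a mismatch. In all 32851 promoters of that table, 18.6% held a match with up to 1 mismatch and 1.47% held one without. The 4 sites are printed 5′ to 3′ on the strand of the gene, with the matching 10 bases in capitals.
Acta2, chr19:34255438-34255467, minus strand, 84 to 75 bases before the start: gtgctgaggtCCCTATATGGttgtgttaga
Acta2, chr19:34255388-34255417, minus strand, 34 to 25 bases before the start: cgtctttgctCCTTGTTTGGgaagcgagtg
Lmod1, chr1:135324614-135324643, plus strand, 189 to 180 bases before the start: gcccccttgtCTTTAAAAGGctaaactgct
Lmod1, chr1:135324639-135324668, plus strand, 164 to 155 bases before the start: ctgctctgtaCTAAATTTGGtcacgcagcg
GENCODE mouse release 21 counts the bases of both Acta2 sites as exonic in a transcript with an earlier start, and places those of Lmod1 outside its exons. The windows of Cnn1, Des, Smtn and Mylk held no match, which says only that these letters are not in those 250 bases.

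To compare levels between genes, counts were divided by exon length and given as TPM, the length-scaled share of a library. In WT mice Tagln (transgelin, an actin-binding protein of the thin filament) and Acta2 (smooth muscle alpha actin) were the most abundant, at 218 ± 37.9 TPM and 218 ± 48.7 TPM (SD, n = 3), and their ranges overlapped. Mylk (myosin light chain kinase) followed with 115 ± 15.6 TPM and Des (desmin, the muscle intermediate filament) with 109 ± 21.8 TPM, again with overlapping ranges. Both lay below Acta2 in each WT mouse. Myh11 (smooth muscle myosin heavy chain) measured 70.4 ± 17.3 TPM, Cnn1 (calponin) 55.6 ± 18.8 TPM, Smtn (smoothelin) 44.2 ± 7.31 TPM and Actg2 (the gamma actin typical of gut and other visceral muscle) 36.6 ± 14.5 TPM. Each of these overlapped its neighbour in the order. Lmod1 (leiomodin, which nucleates actin filaments) stood apart at 15.02 ± 3.21 TPM, and Myocd, the coactivator itself, was the lowest at 1.10 ± 0.173 TPM. The defining markers of smooth muscle were therefore present in all 6 lungs. The counts per gene do not tell bronchial from vascular muscle.

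**Figure D1:**
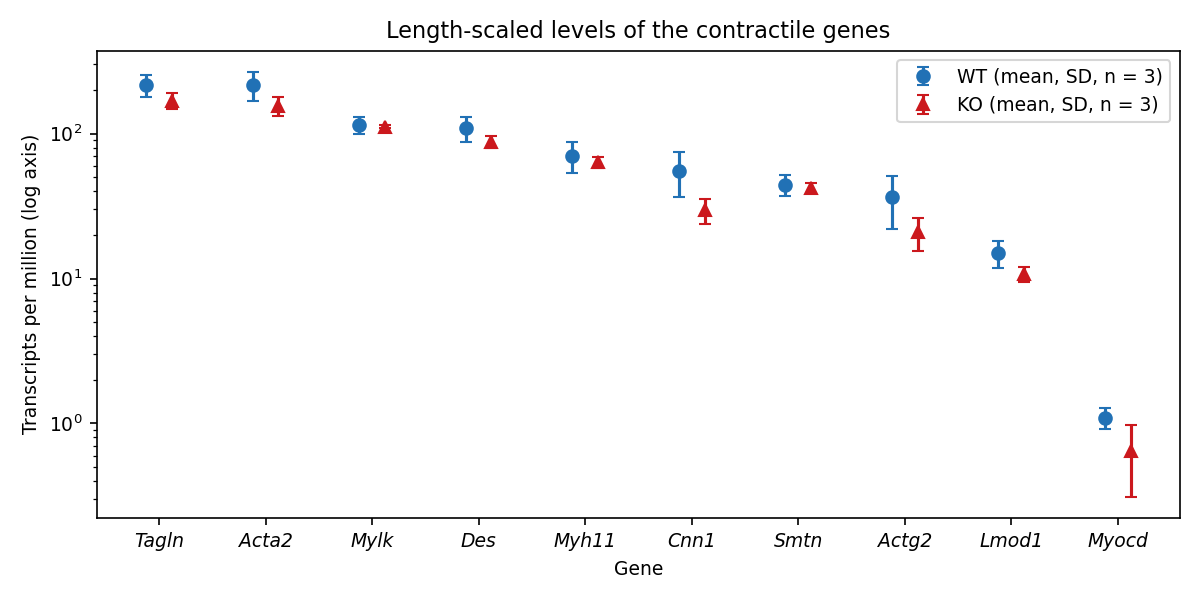
Level of each contractile gene in TPM on a log axis, with circles for WT and triangles for KO, as means with SD bars over 3 mice. Tagln and Acta2 led at 218 TPM each in WT mice, and Myocd was lowest in both groups.

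In KO lungs the contractile genes measured lower than in WT lungs, but none passed the threshold of the test. The log2 fold change (KO minus WT) was negative in 10 of 10 members, and lay between -0.98 for Cnn1 and -0.10 for Mylk, with a median of -0.49. Over all genes tested, 49.4% had a negative log2 fold change and the median was 0.00295. Adjusted p-values lay between 0.0763 and 0.538 (quasi-likelihood test of edgeR, Benjamini-Hochberg over all genes tested), so that 0 of 10 members were called at an adjusted p of 0.05, against a background of 6.39% of all genes called in either direction and 2.67% called lower in KO mice. With the fold threshold of the study added (an absolute log2 fold change of at least 1.5), 0 of 10 were called, beside 0.64% of all genes. The unadjusted p was below 0.05 in 7 members, where 11.6% of all genes had such a p and were lower in KO mice. DESeq2 called 6 of the 10 (Acta2, Actg2, Cnn1, Des, Lmod1 and Tagln), all lower in KO mice, beside 4.65% of the genes it gave an adjusted p. edgeR's exact test called Cnn1 alone of the 10 (adjusted p = 0.00962), beside 1486 genes called in all by that test in either direction. The 3 KO values all lay below the 3 WT values in 3 members (Acta2, Cnn1 and Lmod1), beside 15.6% of all genes. In a whole lung, fewer smooth muscle cells and less of these RNAs per cell cannot be told apart.

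**Figure D2:**
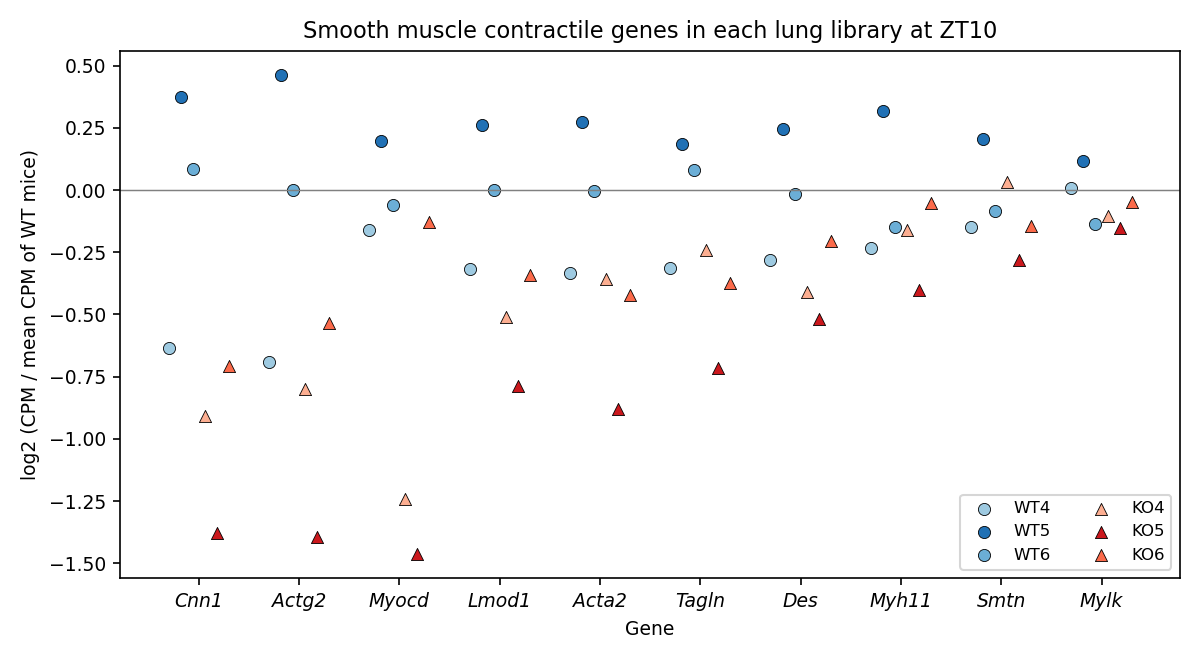
Each contractile gene in each library as log2 of its CPM over the mean of the WT mice, with blue circles for WT and red triangles for KO, ordered by fold change. WT5 is the highest and KO5 the lowest point of every gene, and the 6 points lie closest together in Mylk.

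Among the actins and actin-binding proteins, Cnn1, which binds actin and restrains the myosin motor, differed most. Cnn1 (ENSMUSG00000001349, chromosome 9 from 22099216 to 22109630) measured 33.9, 68.1 and 55.8 CPM in WT4, WT5 and WT6 and 28.0, 20.2 and 32.2 CPM in KO4, KO5 and KO6. The groups did not overlap, but the gap between WT4 and KO6 was smaller than the SD of either group. KO mice had 51.0% of the mean WT level, a log2 fold change of -0.98 (standard error 0.270, 95% interval -1.61 to -0.35, adjusted p = 0.0763 by edgeR). The exact permutation test on log2 CPM gave p = 0.1, the smallest p that 3 mice against 3 allow.

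Actg2 (ENSMUSG00000059430, chromosome 6 from 83512905 to 83536265) measured 12.2, 27.1 and 19.7 CPM in the WT mice and 11.3, 7.49 and 13.6 CPM in the KO mice. The groups overlapped, because WT4 lay below KO6. Its log2 fold change was -0.88 (standard error 0.319, 95% interval -1.63 to -0.13, adjusted p = 0.144). Acta2 (ENSMUSG00000035783, chromosome 19 from 34241090 to 34255590) measured 131, 199.5 and 164 CPM in WT mice and 129, 89.6 and 123 CPM in KO mice. WT4 and KO4 were nearly equal, and the separation of the groups rested on that small gap. KO mice had 68.9% of the mean WT level (log2 fold change -0.54, standard error 0.183, adjusted p = 0.125). Actin genes are close relatives, and the share of their sequence that a read could not place was checked in GENCODE transcripts. No stretch of 100 bases in Acta2 or Actg2 occurred in a transcript of another gene, and of stretches of 50 bases 0.326% of those in Acta2 and none of those in Actg2 did.

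Tagln (ENSMUSG00000032085, chromosome 9 from 45929619 to 45936058) measured 121, 170.5 and 158 CPM in WT mice and 127, 91.2 and 116 CPM in KO mice. WT4 lay below KO4, and the log2 fold change was -0.43 (standard error 0.159, adjusted p = 0.147). Tagln overlaps Pcsk7 on the opposite strand. Pcsk7 had up to 2132 counts, and because the strand setting of the counting is not given in the sources used here, reads from the shared bases could not be assigned with certainty. Lmod1 (ENSMUSG00000048096, chromosome 1 from 135324807 to 135368065) measured 16.4, 24.5 and 20.5 CPM in WT mice and 14.4, 11.9 and 16.1 CPM in KO mice. The highest KO value fell just short of the lowest WT value (log2 fold change -0.54, standard error 0.171, adjusted p = 0.106). Lmod1 followed the mean of the 10 members most closely of all, with a root mean square distance of 0.0264 on the log2 scale over the 6 libraries. Smtn (ENSMUSG00000020439, chromosome 11 from 3517523 to 3540612), a filament-associated protein of contractile muscle cells, measured 60.3, 77.0 and 63.0 CPM in WT mice and 68.3, 55.0 and 60.4 CPM in KO mice. The groups were interleaved, and the log2 fold change was -0.13 (95% interval -0.39 to 0.14, adjusted p = 0.538).

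The motor and its kinase had fold changes nearer to 0 than most members, but the interval of Myh11 also included the -0.54 of Acta2. Myh11 (ENSMUSG00000018830, chromosome 16 from 14194535 to 14291372) measured 157, 229 and 166 CPM in WT mice and 165, 139 and 178 CPM in KO mice. Only WT5 lay above all KO mice, and the log2 fold change was -0.20 (95% interval -0.57 to 0.17, adjusted p = 0.474). Mylk (ENSMUSG00000022836, chromosome 16 from 34745210 to 35002420), which encodes long and short forms of the kinase that these counts pool, measured 448, 483 and 406 CPM in WT mice and 414, 400.4 and 430.4 CPM in KO mice. Its groups overlapped too, with a log2 fold change of -0.10 (95% interval -0.28 to 0.07, adjusted p = 0.435). Smtn, Myh11 and Mylk were the members whose interval included 0.

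Des (ENSMUSG00000026208, chromosome 1 from 75360329 to 75368579), which links the contractile units of all 3 muscle types, measured 116, 168 and 140.0 CPM in WT mice and 106, 98.6 and 123 CPM in KO mice. WT4 lay below KO6, and the log2 fold change was -0.37 (standard error 0.139, adjusted p = 0.151). KO5, the library with skeletal muscle transcripts, had the lowest level of Des, and KO6, the one with the most Myh6, the highest level among KO mice. The part of cardiac and skeletal muscle RNA in Des was not tested. Myocd (ENSMUSG00000020542, chromosome 11 from 65176561 to 65269989) was the sparsest member, with 54, 58 and 72 counts in WT mice and 21, 42 and 45 counts in KO mice, that is 2.17, 2.78 and 2.33 CPM against 1.03, 0.881 and 2.22 CPM. KO4 and KO5 were low, while KO6 lay between WT4 and WT6. The log2 fold change of -0.86 had the widest interval of the list, from -1.69 to -0.02 (adjusted p = 0.185). Myocardin is also made in heart muscle. Myocd and Smtn share chromosome 11 with Zpbp2, at 33.4 and 95.03 Mb from it.

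**Figure D3:**
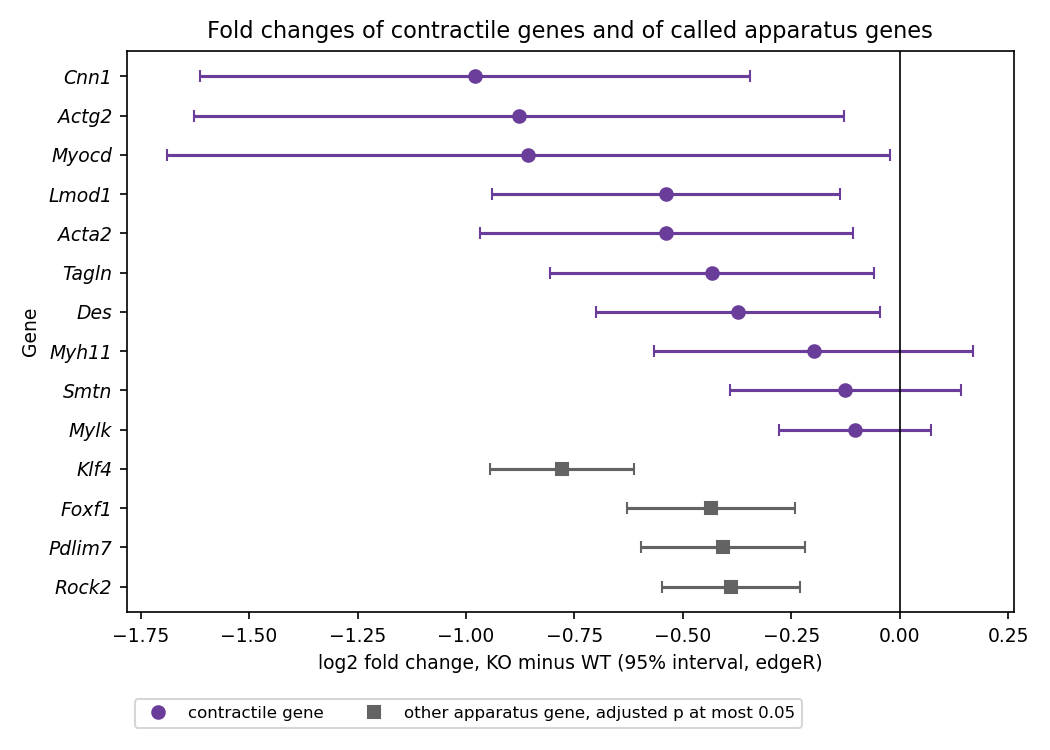
Log2 fold changes of KO against WT lungs with 95% intervals from edgeR, for the 10 contractile genes (circles) and the 4 other apparatus genes past the threshold (squares). The intervals of Myh11, Smtn and Mylk include 0, and the intervals of Klf4, Foxf1, Pdlim7 and Rock2 are narrower than those of Cnn1, Actg2 and Myocd.

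The members ranked the libraries alike at both ends. WT5 was the highest and KO5 the lowest library in 10 of 10 members, an order found in 4.89% of all genes tested. Members share these libraries and are not replicates of each other. Of the wider apparatus Cald1, Tpm1, Myl9, Klf4, Vcl, Csrp1, Pdlim3 and Atp2a2 had this order too. So did the fibroblast genes Col1a1, Col1a2 and Col3a1 and the cardiac genes Myl7, Actc1 and Nppa. Tpm2, Srf and Vim were among those that did not. The summed CPM of the list was 1098, 1449.5 and 1196 in WT4, WT5 and WT6 and 1063, 915 and 1094 in KO4, KO5 and KO6. WT4 and KO6 were nearly equal, while WT5 and KO5 marked the ends of the range. Each log2 fold change kept its negative sign with any single library left out. The median over the list then ranged from -0.62 without WT4 to -0.35 without KO5. In each of these 6 fits 0 of 10 members were called. Of all genes, between 1 (without WT5) and 1278 (without KO4) were called in these fits. With WT5 and KO5 both left out, a choice made after seeing the data, the median was -0.22 and the log2 fold changes of Myh11 and Smtn turned positive, at 0.079 and 0.057.

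**Figure D4:**
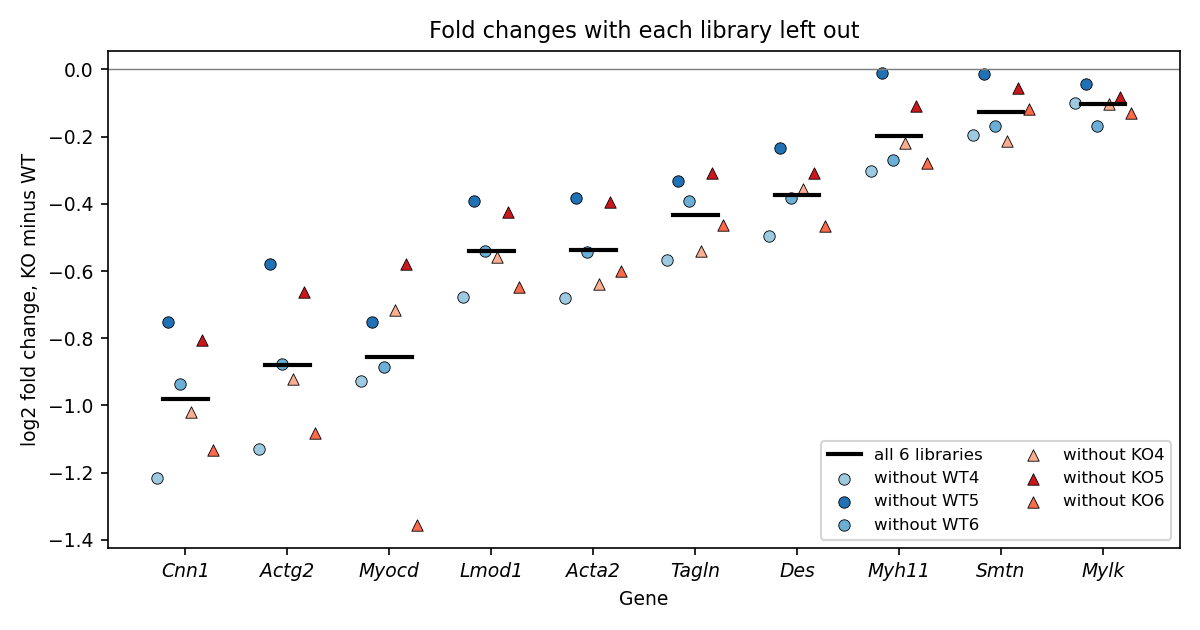
Log2 fold change of each contractile gene with all 6 libraries (bars) and with each library left out (points). The points without WT5 and without KO5 lie nearest to 0 for Cnn1, Actg2, Lmod1, Acta2 and Tagln, and no point crosses 0.

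Ratios of counts within a library do not depend on how the libraries are scaled, and they show how unevenly the members differed. Counts of Cnn1 amounted to 21.6%, 29.7% and 33.5% of those of Myh11 in WT4, WT5 and WT6, and to 17.0%, 14.5% and 18.1% in KO4, KO5 and KO6. The KO ratios all lay below the WT ratios. For Actg2 over Myh11 they were 7.77%, 11.8% and 11.9% in WT mice and 6.86%, 5.38% and 7.63% in KO mice, and WT4 was close to KO6. For Acta2 over Myh11 they were 83.5%, 87.0% and 98.9% against 78.1%, 64.4% and 69.2%, again without overlap. Against Mylk in place of Myh11 the groups of Acta2 overlapped, with 29.2% in WT4 and 31.1% in KO4, whereas those of Cnn1 did not. The ratio of Tagln to Myh11 overlapped too, with 76.9% in WT4 and 77.0% in KO4. These pairs were chosen after the fold changes were seen and carry no test.

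Beyond the 10 members, 48 other genes of the contractile apparatus were listed by role, and all 48 were tested. Of these, 4 were called, all lower in KO mice (Klf4, Rock2, Foxf1 and Pdlim7), and 37 of the 48 log2 fold changes were negative, with a median of -0.16. Over all genes tested 2.67% were called lower and 49.4% had a negative log2 fold change. Klf4, a transcription factor known to hold back contractile genes in vascular muscle and also active in endothelium and epithelium, fell from 250.2 ± 1.68 CPM in WT mice to 146 ± 13.2 CPM in KO mice (SD, n = 3). Its log2 fold change was -0.78 (standard error 0.0705, adjusted p = 0.00665 by edgeR), and it was called in 5 of the 6 fits that left out 1 library, but not without WT5 (adjusted p = 0.0566). Rock2, a kinase that inhibits myosin phosphatase, fell from 313 ± 24.9 to 239 ± 2.36 CPM (log2 fold change -0.39, adjusted p = 0.0262) and was called in 3 of those 6 fits. Foxf1, a factor of lung mesenchyme and capillary endothelium, fell from 245 ± 7.68 to 181 ± 20.01 CPM (log2 fold change -0.44, adjusted p = 0.0318) and was called in 1 of them. Pdlim7, a filament scaffold, fell from 40.2 ± 3.61 to 30.3 ± 1.41 CPM (log2 fold change -0.41, adjusted p = 0.0350) and was called in 2 of them. With WT5 left out, 0 of the 48 were called, beside 1 of all genes. Of all genes, 1089 were called with all 6 libraries. The count was 254 without WT4, 63 without WT6, 1278 without KO4, 933 without KO5 and 117 without KO6.

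SRF and the coactivators related to myocardin did not pass the threshold in edgeR's quasi-likelihood test. Srf measured 62.4 ± 1.79 CPM in WT mice and 57.1 ± 1.42 CPM in KO mice (log2 fold change -0.13, adjusted p = 0.151). The myocardin-related factors Mkl1 and Mkl2, which respond to actin polymerization, had positive values, with log2 fold changes of 0.43 (adjusted p = 0.0814) and 0.23 (adjusted p = 0.0767). The KO values of both lay above all WT values. Mkl1 was called by DESeq2 (adjusted p = 0.0162) and by edgeR's exact test (adjusted p = 0.0359). Among other filament genes, the tropomyosins Tpm1 and Tpm2 had log2 fold changes of -0.25 and -0.31, the regulatory light chain Myl9 of -0.26 and caldesmon (Cald1) of -0.17, with adjusted p-values from 0.120 to 0.327. Vimentin (Vim), an intermediate filament shared by most mesenchymal cells and leukocytes, had a log2 fold change of 0.12 (adjusted p = 0.345). By role, the median log2 fold change was -0.25 over 3 thin filament genes, -0.14 over 4 myosin genes, -0.08 over 13 kinase and phosphatase genes, -0.12 over 13 genes that anchor filaments, -0.20 over 7 transcription factors and cofactors and -0.27 over 8 genes of calcium and potassium handling.

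Marker lists of other cells showed which differences moved alongside. The 10 genes listed for pericytes, contractile cells of the capillary wall, had 0.06 as their median log2 fold change. Of these genes 9 measured higher in KO mice. Whether they mark pericytes alone was not tested. Rgs5 was the only one called, and rose (log2 fold change 0.95, adjusted p = 0.0367), and it was called in 1 of the 6 fits that left out 1 library. The median was -0.15 over 8 fibroblast genes, -0.10 over 6 endothelial genes, -0.30 over 5 mesothelial genes, -0.23 over 7 tested epithelial genes and -0.13 over 4 genes of airway muscle and myofibroblasts (Hhip, Lgr6, Aspn and Wnt5a). Of these lists 1 gene was called, Cldn5 of endothelium, which fell (log2 fold change -0.31, adjusted p = 0.0362) and was called in 0 of the 6 fits that left out 1 library. Rgs5 and Cldn5 were named after their values were seen. Cartilage, the tissue of the large airways, was nearly absent, since 9 of its 10 genes stayed under 1 CPM in each library and 2 had no counts at all.

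Of 7 leukocyte markers, 2 were called, both higher in KO lungs (Ptprc and Itgam), and the median log2 fold change was 1.13. Lyz2, a lysozyme of myeloid cells that type II epithelial cells also make and the most abundant gene of this list, measured 4230.0 CPM on average in WT mice and 4117 CPM in KO mice (log2 fold change -0.04, adjusted p = 0.864 by edgeR). Ptprc, the pan-leukocyte marker CD45, measured 164, 139.8 and 146 CPM in WT mice and 234, 439 and 321 CPM in KO mice (log2 fold change 1.15, adjusted p = 0.0290), and was called in 2 of the 6 fits that left out 1 library. Itgam, the integrin CD11b of myeloid cells, had a log2 fold change of 1.13 (adjusted p = 0.0211) and was called in 3 of them. KO5 had the highest level of Ptprc and the lowest of each contractile gene, and WT5 the lowest level of Ptprc and the highest of each contractile gene. The summed cardiac list ran from 537 to 1339 CPM in WT mice and from 200.4 to 1485 CPM in KO mice, with KO5 lowest and KO6 highest, and its median log2 fold change was -0.35. The summed skeletal muscle list was 129 CPM in KO5 and between 12.2 and 30.3 CPM in the other libraries, and the median log2 fold change was 1.34 over the 6 genes tested. The part of these cells in the contractile values was not tested.

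**Figure D5:**
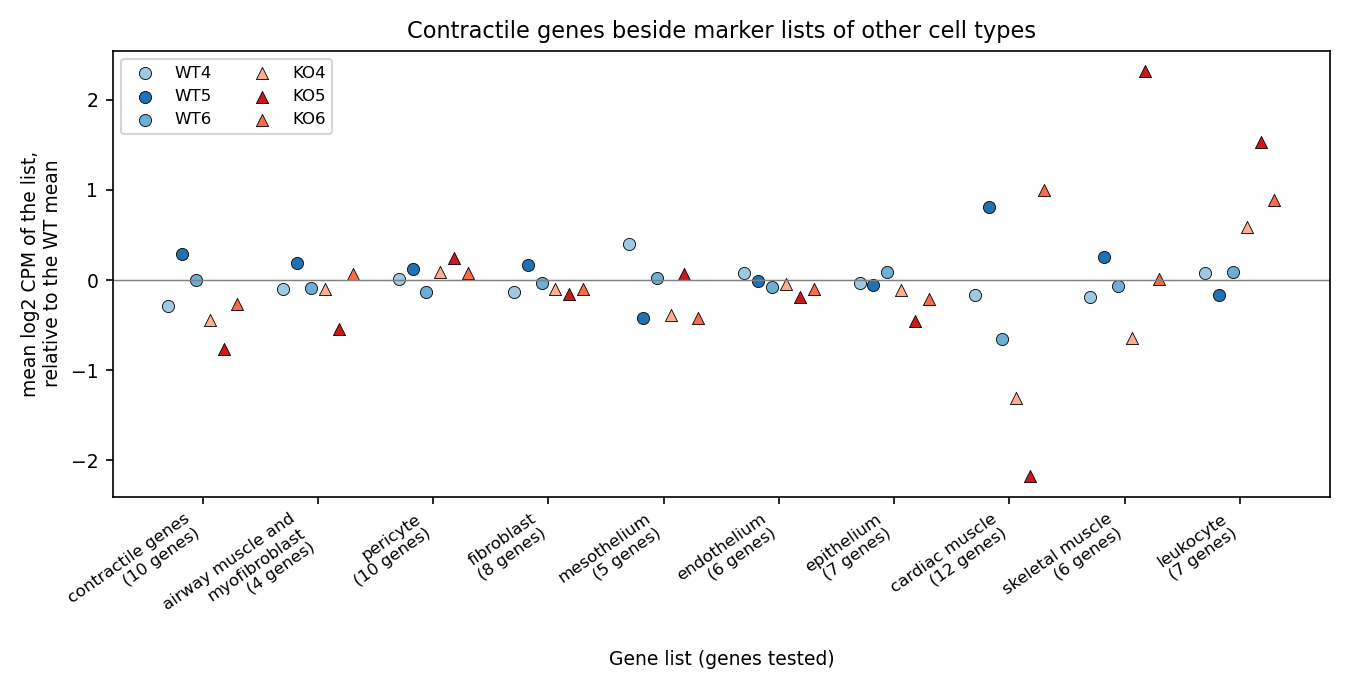
Mean log2 CPM of each gene list in each library, relative to the mean of the WT mice, with blue circles for WT and red triangles for KO. KO5 is lowest for contractile, airway muscle and myofibroblast, fibroblast, endothelial, epithelial and cardiac genes. It is highest for pericyte, skeletal muscle and leukocyte genes, and KO6 is highest for cardiac genes.

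With the 10 members set aside, all genes tested were ranked by how near their profile over the 6 libraries lay to the mean of the members. On centred log2 CPM the root mean square distance was 0.0806 for P2rx5, 0.0951 for Gp5, 0.0965 for Steap2, 0.0980 for Foxc2, 0.106 for Abhd3 and 0.112 for Il33. None of the 6 was called, with adjusted p-values from 0.0625 to 0.274. Il33, an alarmin cytokine stored in nuclei of barrier cells, was also the gene nearest to Acta2 (distance 0.101) and measured 135, 189 and 145 CPM in WT mice and 107, 77.5 and 111 CPM in KO mice. P2rx5 was nearest to Lmod1, Scube3 to Myh11, Hgfac to Tagln, Vtcn1 to both Cnn1 and Actg2, Gp1ba to Des, Gadd45b to Mylk, Pcx to Smtn and Tram1l1 to Myocd. With 6 libraries of 2 genotypes, likeness of this kind is a description only.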

How the data were processed

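Per the labels and the study's methods, the authors trimmed reads and mapped them to GRCm38 (STAR 2.5.3a) before counting (HTSeq 0.6.0), from a stranded mRNA library kit. Trimmomatic 0.36 and Picard 2.9.0 are also named in the submitters' processing notes. The annotation release and the strand setting are not given in the sources used here. The deposited values are raw counts per Ensembl gene in 1 column per mouse, without normalization. Total counts per mouse, from 19981428 to 46796908, put 3 counts between 0.0629 and 0.148 CPM, and this floor covers counting error only.

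KO and WT libraries were compared in R 4.3.3 with edgeR 4.0.16 (glmQLFit and glmQLFTest, TMM, filterByExpr with minimum count 10 and minimum total 15, no covariates), with Benjamini-Hochberg adjustment over the 17037 genes kept. A gene was called at an adjusted p of at most 0.05. Standard errors are the log2 fold change over the square root of F, with 95% intervals from the t distribution at the test's degrees of freedom. Log2 CPM values use a prior count of 2. Exact permutation tests are two-sided. DESeq2 1.42.0 was an alternative, beside other scalings, filters, edgeR's exact test, the replicate number as a block and each library left out. The fits were tested on simulated data. Positions, exon lengths and transcripts came from GENCODE mouse release 21 (GRCm38), which placed 46574 of the 47069 genes, and promoters from RefSeq. Tables were made in Python 3.11.15 (pandas 2.3.3, SciPy 1.17.1, NumPy 2.4.6) and plots with Matplotlib 3.10.9.

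The members and lists were chosen with earlier results of these data known. Genes named are the members, called genes of the apparatus with Srf, Mkl1, Mkl2, Myl9, Tpm1, Tpm2, Cald1 and Vim, the 3 markers of highest mean CPM in each list of other cells (printed only where they bear on a member), the genes of nearest profile and Zpbp2, Nr1d1 and sex-linked genes. Other markers and other genes of the apparatus were named after their values were seen.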

Additional observations from a re-analysis of the deposited data

How the results depend on the processing

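The count of contractile genes called was 0 under edgeR's quasi-likelihood test with TMM, DESeq2 size factors, upper-quartile factors, TMM without immunoglobulin genes and a minimum of 10 counts in every library, and with each library left out (0 to 0). It was 6 with DESeq2, 1 with edgeR's exact test and 1 without a filter (Cnn1 in both). The median log2 fold change of the list stayed between -0.50 and -0.48 under the other tests, scalings and filters, and between -0.62 and -0.22 with libraries left out, the last with WT5 and KO5 both left out, the alternative added after seeing the data. In that fit the log2 fold change of Myh11 was 0.079 and that of Smtn 0.057, whereas with 1 library left out they ranged from -0.30 to -0.01 for Myh11 and from -0.21 to -0.01 for Smtn. Over all alternatives 148 of 150 log2 fold changes of single members were below 0. Of the other genes of the apparatus 4 were called, 7 with DESeq2, and between 0 and 4 with libraries left out (0 without WT5, 1 without WT6 or KO6, 2 without KO5, 0 without both WT5 and KO5). The number of all genes called was 1089, with 1847 under DESeq2, 1486 under edgeR's exact test and 1401 without a filter. It lay between 1 (without WT5) and 1278 (without KO4) with 1 library left out. Labels give both groups replicate numbers 4 to 6. Same-numbered libraries did not deviate together (correlations across genes of -0.03, -0.15 and -0.02). Correlations between unlike numbers ranged from -0.23 (WT4 with KO6) to 0.26 (WT5 with KO6). Such values cannot show whether same-numbered libraries shared a batch. With the replicate number as a block, 0 members, 1 other gene of the apparatus (Klf4) and 66 genes in all were called, and the median of the list was -0.48. The causes were not tested. Depth limits Myocd most, with 21 to 72 counts per library.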

Other observations

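The labels give no sex. Xist, the X-inactivation RNA of female cells, measured between 715 and 994 CPM in all 6 libraries. Of the Y-linked genes Ddx3y, Uty, Kdm5d and Eif2s3y, KO5 had 9, 6, 7 and 2 counts, WT5 had 1 count of Uty and the other 4 libraries had none. Nr1d1, the clock gene the study followed, also had its highest level in WT5 (310.1 CPM) and its lowest in KO5 (200.1 CPM), as each contractile gene did, with a log2 fold change of -0.36 (adjusted p = 0.136 by edgeR and 0.0306 by DESeq2).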
